A study of Arabidopsis thaliana with 24 samples.

Results

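In imbibed Arabidopsis thaliana seeds, 170 of the 23826 genes with a deposited value, 0.714%, stood higher in the mutant ref6c at 48 h than in the wild type Col at any of the 4 times sampled. A gene was taken when its ref6c 48 h mean was at least 5 TPM (transcripts per 1e6, a gene's share of its library after division by gene length), when that mean plus 1 was at least 1.5 times the Col mean plus 1 at each of 0, 6, 24 and 48 h, and when all 3 ref6c 48 h libraries lay above all 12 Col libraries. These genes were thus selected on the measured levels of Col at all times and of ref6c at 48 h, and those levels are given as a description, with no test. The ref6c libraries at 0, 6 and 24 h took no part in the choice, and the tests below use them alone. The rule can still favour genes that rise during imbibition, so counts of rises and falls in the set are not free of it.

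RNA was sequenced from seeds of 2 genotypes at 4 times of imbibition, 0, 6, 24 and 48 h, in 3 libraries for each of the 8 groups. Col is the wild-type accession, and ref6c is a mutant of REF6. The seeds had been after-ripened, that is, stored dry after harvest, and were put to germinate on 1/2 MS medium under long days at about 22 °C. The growth note attached to every library names ref6-1;REF6-HA seeds, so the genotype of each library rests on its title and genotype label. The origin of the replicates is not stated, so p-values measure the spread between these libraries. The 0 h group is called dry seed here, from its label of 0 h of imbibition, and seeds are a mixture of embryo, endosperm and seed coat, in which fewer cells of a type and less RNA per cell cannot be told apart.

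REF6 is a histone demethylase of the Jumonji family that removes the repressive mark H3K27me3 and finds part of its targets by zinc fingers that read DNA sequence. Germination begins with water uptake by the dry seed and passes through weakening of the endosperm and growth of the embryo to emergence of the root, under the opposed hormones gibberellin and abscisic acid, while stored oil, protein and starch are turned over. The REF6 transcript was lower in ref6c at every time, and not absent: its libraries read 7.86, 9.16 and 8.04 TPM at 48 h, against 15.05, 13.6 and 15.7 TPM in Col. Recovered depth was 16624632 to 19260850 reads per library.

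Most of the 170 genes were just above the margin. The ratio of the ref6c 48 h mean to the highest Col mean, each plus 1, had a median of 1.66 and reached 2 in 27 genes and 4 in 5 genes, and 67 genes were under 1.6. The genes nearest to the margin inside it were AT2G43370 at 1.5001, AT1G47570 at 1.5007 and ISA3 at 1.501, and those nearest outside were NF-YC12 at 1.4995, AT4G16710 at 1.4992 and BGLU44 at 1.4987. All 3 ref6c 48 h libraries lay above all 12 Col libraries in 1301 of the 13079 genes with a ref6c 48 h mean of 5 TPM or more, which is 9.95%, so the condition on the size of the ratio removed most of these. When the choice was made in replicates 1 and 2 alone, 177 genes met the rule, and the libraries of replicate 3 gave a ratio of at least 1.5 in 117 of them (66.1%). The same held for 114 of 187 genes (61.0%) with replicate 2 set aside and for 114 of 165 (69.1%) with replicate 1 set aside, and the others fell short of the margin in the libraries set aside. The ref6c 48 h library set aside was above its 4 Col counterparts in 174, 186 and 160 of these genes. In the same order, this held for 16.91%, 18.16% and 19.70% of the genes at 5 TPM. Those genes were not matched to the chosen ones, and the contrast was not tested. These counts and shares are descriptions, since every one of the libraries entered the rule that gave the 170.

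The set depends on the scaling, that of the dry seed included. Median-of-ratios scaling, which sets the median gene equal across libraries, moved ref6c 48 h by -1.82 on the log2 scale relative to Col 0 h, and by 0.06, 0.04 and -0.02 relative to Col at 6, 24 and 48 h. Under it 76 genes met the rule, 71 of them among the 170. Not every loss lay with the dry seed. AT4G12890, at 0 in Col at 0 h, had a scaled ref6c 48 h mean of 4.85, under the minimum of 5. Without the 0 h libraries 231 genes met the rule on TPM, the 170 included. With median-of-ratios scaling and without those libraries 209 genes met it, and 139 of them were among the 170. Scaled in this way, the Col 0 h mean was above the ref6c 48 h mean in 46 of the 170 genes, so that their direction against the dry seed turned. Of the genes named below these were ASG4, OLEO3, EEL, BAM4, GA2, SDR3, PSD3, AT1G03106, CID12, NHX3, AT5G55450 and AT5G55460, and of those named at the margin AT2G43370.

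In Col these genes mostly ended at their highest point. The highest Col mean was at 48 h for 106 genes, which is 62.4% against 34.3% of all genes at 5 TPM, at 24 h for 29, at 6 h for 23 and at 0 h for 12. Only 13.5% were highest at 6 h, against 35.9% of the genes at 5 TPM. These shares come from Col libraries that entered the rule, which can favour a late highest mean, so nothing is read from the contrast. In ref6c the highest mean was at 48 h for 159 genes, at 24 h for 10 and at 6 h for 1, CID12. The rule asks for high ref6c 48 h means and so favours the count at 48 h, and no share over all genes is set beside it. The median level over the 170 genes went from 4.45 TPM at 0 h through 11.1 and 12.7 TPM to 17.5 TPM at 48 h in Col, and from 4.53 TPM through 13.1 and 21.3 TPM to 30.6 TPM in ref6c.

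**Figure D1:**
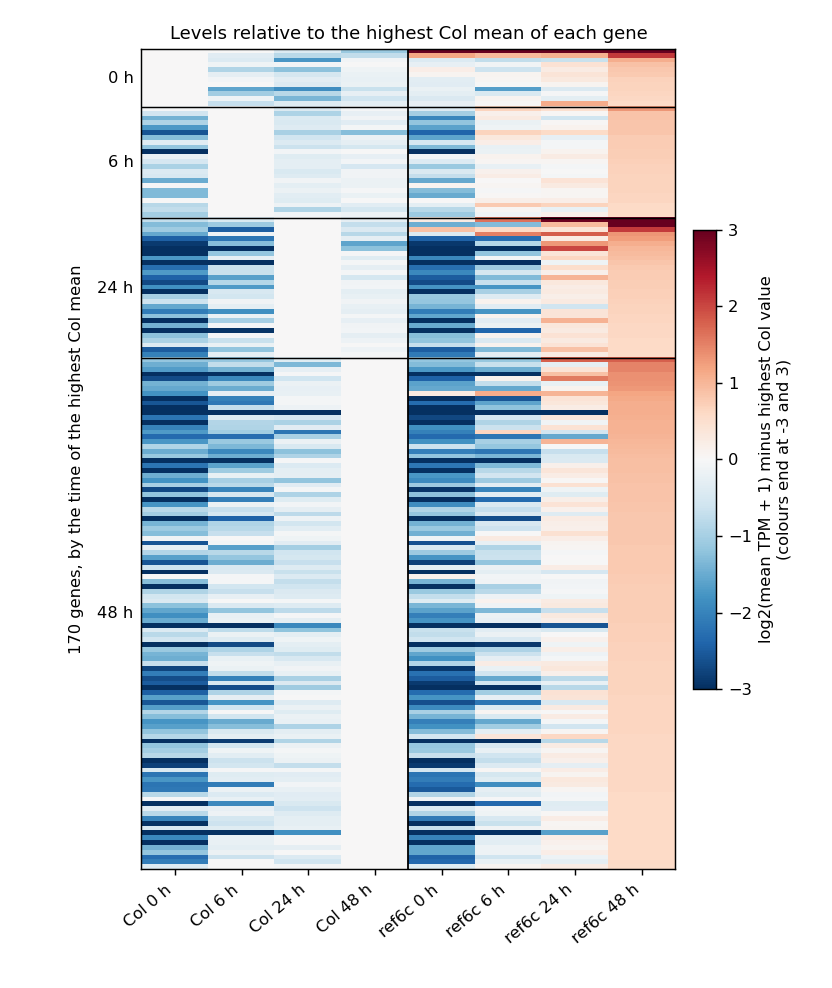
Each of the 170 rows is a gene and each column a group, and the colour is log2 of the group mean TPM plus 1 minus the same value in the gene's highest Col group; rows are split by the time of that highest Col mean, with 12, 23, 29 and 106 genes from top to bottom. The ref6c 48 h column is red throughout, as the rule requires, and the ref6c 24 h column is paler and holds both colours.

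Within ref6c, rises outnumbered falls among these genes between 6 and 24 h, while the share that changed was close to that of all genes. Of the 166 that passed a filter of 1 TPM in at least 3 of the 9 ref6c libraries at 0, 6 and 24 h, 107 rose and 3 fell from 6 to 24 h at an adjusted p under 0.05 in limma, and the others did not pass. Over all 16442 genes tested 34.1% rose and 33.1% fell. Those genes were not matched to the set for the levels that the rule used, and the rule can favour rises, so the contrast was not tested. Changes in either direction made up 66.3% of the 166 genes and 67.2% of all genes tested. The median log2 change was 0.54 for the 166 genes and -0.02 for all genes tested, on the log2(TPM + 1) scale. Median-of-ratios scaling gave 111 rises and 6 falls, and counts over the 107 tested genes that overlap no other annotated gene were 69 rises and 2 falls.

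The counts are given by the time of the highest Col mean, and differences between these subsets were not tested. Of the 29 genes whose Col mean was highest at 24 h, 23 rose and none fell, with a median log2 change of 1.247. Of the 102 tested genes with the highest Col mean at 48 h, 75 rose and 1 fell, with a median of 0.66. Of the 23 genes with the highest Col mean at 6 h, 2 rose and 2 fell, with a median of 0.01. Of the 12 with the highest Col mean at 0 h, 7 rose and 0 fell, with a median of 0.36.

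**Figure D2:**
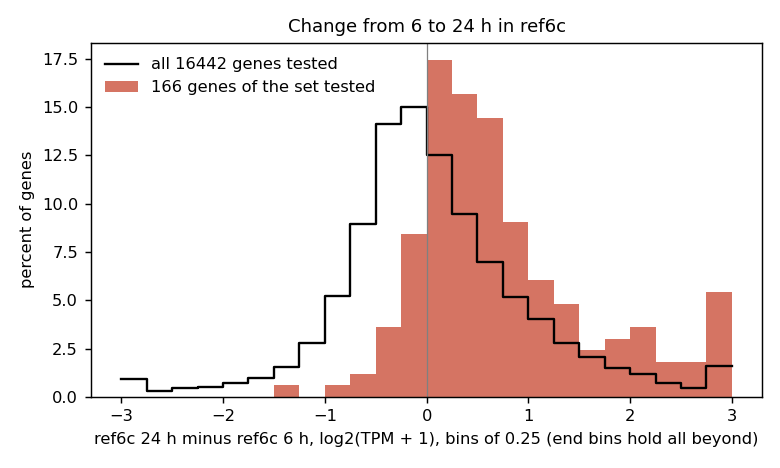
The horizontal axis is the change from 6 to 24 h in ref6c on log2(TPM + 1), in bins of 0.25, and the vertical axis is the percent of genes in a bin; bars are the 166 genes of the set that were tested and the line is all 16442 genes tested. The bars lie to the right of the line, with medians of 0.54 and -0.02.

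The change from dry seed to 6 h cannot be given a direction without naming the scaling. From 0 to 6 h 133 of the 166 genes rose and 5 fell, but 82.6% of all genes tested rose and 8.76% fell, and the median log2 change of the 166 genes, 0.94, was under the 1.49 of all genes. With median-of-ratios scaling, 36 rose and 95 fell. From 0 to 24 h 152 rose and 0 fell, beside 81.3% and 12.4% of all genes, and the medians were 1.69 and 1.64. Scaled by median of ratios the same change gave 73 rises and 74 falls.

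The levels of ref6c before 48 h are set against Col here as a description, because the rule took genes with low Col values and high ref6c 48 h values, which favours all of these counts. Shares over all genes are printed beside them and nothing is read from the contrast. The 3 ref6c 24 h libraries lay above all 12 Col libraries in 66 of the 170 genes, beside 3.7% of the genes at 5 TPM. At 6 h this held for 16 genes, beside 5.51%, and at 0 h for 5 genes, beside 1.33%. With median-of-ratios scaling the count at 24 h was 38. The median log2 difference of ref6c from Col at the same time began at -0.10 in the dry seed, was 0.06 after 6 h and 0.42 after 24 h, and ended at 0.81, a direction that the rule fixes. In order of time 49, 105, 160 and all 170 genes were higher in ref6c, the last again by the rule. Over all 18481 genes in that fit the medians were -0.08, -0.03, -0.04 and -0.05. The ref6c 48 h libraries were all above the ref6c 24 h libraries in 155 genes and all below them in 5, beside 38.9% and 30.1% of the genes at 5 TPM.

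**Figure D3:**
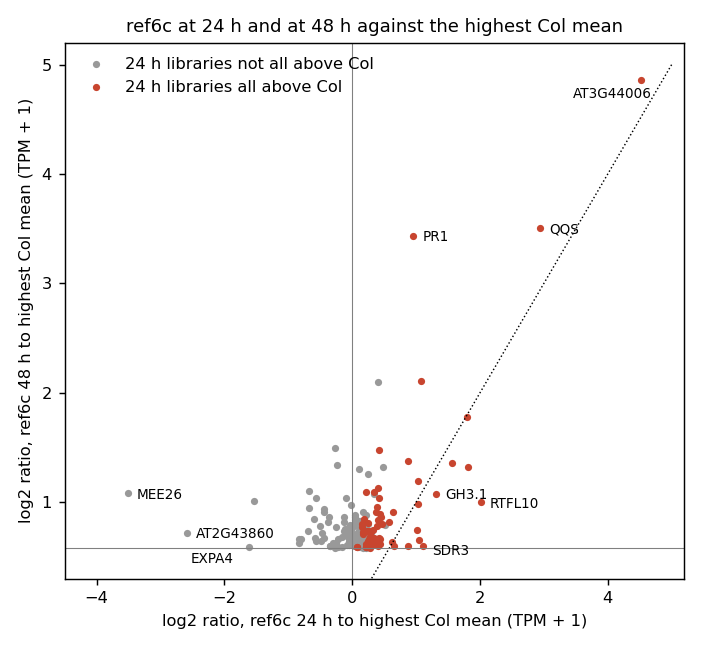
Each point is 1 of the 170 genes, with the log2 ratio of its ref6c 24 h mean to its highest Col mean on the horizontal axis and that of its ref6c 48 h mean on the vertical axis, both after adding 1 TPM; the dotted line marks equal ratios, the horizontal line the margin of 1.5, and red points are the 66 genes whose ref6c 24 h libraries were all above Col. Points right of the dotted line, such as RTFL10, GH3.1 and SDR3, were higher in ref6c at 24 h than at 48 h.

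A few genes were above Col at every time, the dry seed included. AT3G44006 (chr3:15796133-15796837, plus strand), annotated only as an uncharacterized protein, had the largest ratio of all, 29.10. Its ref6c libraries read 143, 183 and 192 TPM at 0 h, 92.5, 91.0 and 115 TPM at 6 h, 146, 165 and 135 TPM at 24 h and 185, 194 and 185 TPM at 48 h. The highest of its 12 Col libraries was 7.22 TPM, so the genotypes were far apart throughout. QQS (chr3:12349047-12349933, plus strand), a gene found only in Arabidopsis whose level is known to affect starch and protein content, read 1.02, 1.04 and 1.296 TPM at 0 h and 19.4, 18.0 and 19.5 TPM at 48 h in ref6c, and no Col library exceeded 0.99 TPM. It rose in ref6c from 6 to 24 h by 1.32 ± 0.12 (SE, limma adjusted p = 6.4e-07). AT2G13547, another uncharacterized protein, was at 7.04 ± 0.183 TPM (SD, n = 3) in Col and 17.3 ± 1.68 TPM in ref6c at 0 h, and at 3.82 ± 0.719 TPM and 33.7 ± 3.37 TPM at 48 h. AT5G11330, an FAD/NAD(P)-binding oxidoreductase, was at 2.74 ± 0.238 TPM and 14.6 ± 0.429 TPM at 0 h and at 12.03 ± 0.178 TPM and 28.8 ± 1.698 TPM at 48 h. These 4 were the only genes of the set whose ref6c libraries at 0, 6 and 24 h all lay above every Col library. With median-of-ratios scaling this held for AT3G44006, QQS, AT5G11330 and AT3G60520, and not for AT2G13547. AT4G09355, whose ratio was 4.28, has an annotated span of 27 bases and a mean of 20.7 reads at ref6c 48 h, and its value is uncertain.

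The GH3 family supplied 3 genes of the auxin-conjugating group. GH3 enzymes join hormones to amino acids, and the group II members WES1 (GH3.5), DFL1 (GH3.6) and GH3.1 act on auxin, whose conjugation lowers the free hormone. The list of 10 measured GH3 genes was written after these genes had been seen. All 3 still met the rule under median-of-ratios scaling.

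WES1 (chr4:13653579-13656285, plus strand) had Col libraries of 36.4, 31.2 and 30.5 TPM at 24 h and 33.3, 32.5 and 34.7 TPM at 48 h. In ref6c it read 71.9, 48.1 and 67.2 TPM at 24 h and 86.5, 87.8 and 91.7 TPM at 48 h. The Col libraries of these times overlapped, and ref6c was above Col at both, without overlap, with a ratio of 2.60 at 48 h. From 6 to 24 h WES1 rose in ref6c by 3.82 ± 0.16 (SE, limma adjusted p = 1.02e-09). GH3.1 (chr2:6451319-6453797, minus strand) read 15.8, 11.2 and 12.04 TPM at 24 h and 2.46, 4.202 and 4.35 TPM at 48 h in Col, and 37.8, 24.3 and 38.9 TPM and 28.1, 27.4 and 30.3 TPM in ref6c. The Col libraries were lower at 48 h than at 24 h, and those of ref6c were not below 24.3 TPM at either time. The 6 to 24 h rise of GH3.1 in ref6c was 2.149 ± 0.17 (SE, limma adjusted p = 2.29e-07). DFL1 (chr5:22130964-22133688, minus strand) read 1.32, 1.58 and 2.03 TPM at 6 h in Col and 0.45, 0.398 and 0.371 TPM in ref6c, so ref6c was the lower genotype then. At 48 h the order was the reverse, with 29.9, 30.8 and 30.7 TPM in Col and 56.7, 56.1 and 56.8 TPM in ref6c. Its rise from 6 to 24 h in ref6c was 4.38 ± 0.15 (SE, limma adjusted p = 2.64e-10).

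The other GH3 genes did not meet the rule. BRU6 (GH3.2), which also conjugates auxin, was at 89.1 ± 3.13 TPM in Col dry seed and 3.36 ± 0.281 TPM at 48 h, and at 105 ± 16.9 TPM and 6.43 ± 0.253 TPM in ref6c. GH3.3 was at 23.3 ± 4.59 TPM in Col and 2.45 ± 0.986 TPM in ref6c at 48 h. JAR1 (GH3.11), which conjugates jasmonate, was at 69.6 ± 4.16 TPM and 58.0 ± 2.104 TPM. Over the 7 GH3 genes that passed the filter, 4 rose and 2 fell from 6 to 24 h in ref6c. Among all genes tested 34.1% rose and 33.1% fell, and the contrast was not tested.

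WES1 and DFL1 rose from 6 to 24 h in ref6c, and in Col as well. Under median-of-ratios scaling their Col means went from 1.88 to 23.06 and from 1.14 to 22.2. The sequences before these paralogues are shown because the bases before their starts share runs. They are the 200 bases before the annotated start in the TAIR10.1 reference, chr4:13653379-13653578 on the plus strand for WES1 and chr5:22133689-22133888 on the minus strand for DFL1, written 5′ to 3′ with the runs of at least 10 bases found in both, in the same order, in capitals.
WES1: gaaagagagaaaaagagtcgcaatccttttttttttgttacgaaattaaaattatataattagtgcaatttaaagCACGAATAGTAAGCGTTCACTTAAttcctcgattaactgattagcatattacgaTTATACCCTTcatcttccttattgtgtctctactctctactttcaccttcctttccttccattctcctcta
DFL1: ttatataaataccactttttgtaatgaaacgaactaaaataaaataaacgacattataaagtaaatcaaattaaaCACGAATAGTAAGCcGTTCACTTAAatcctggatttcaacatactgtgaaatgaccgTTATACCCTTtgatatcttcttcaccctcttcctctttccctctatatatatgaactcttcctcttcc
The 3 shared runs are 14, 10 and 10 bases long. The first begins 125 bases before the start in both genes, the next 111 bases before it in WES1 and 110 in DFL1, and the last 71 and 68 bases before it. The auxin response element TGTCTC, searched on both strands from 250 bases before to 50 after the start, was held by 11.8% of 169 promoters of the set and by 13.0% of the genes at 5 TPM. A variant of it, TGTCGG, was in 2.37% and 5.88%. Both were added after the genes had been seen.

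**Figure D4:**
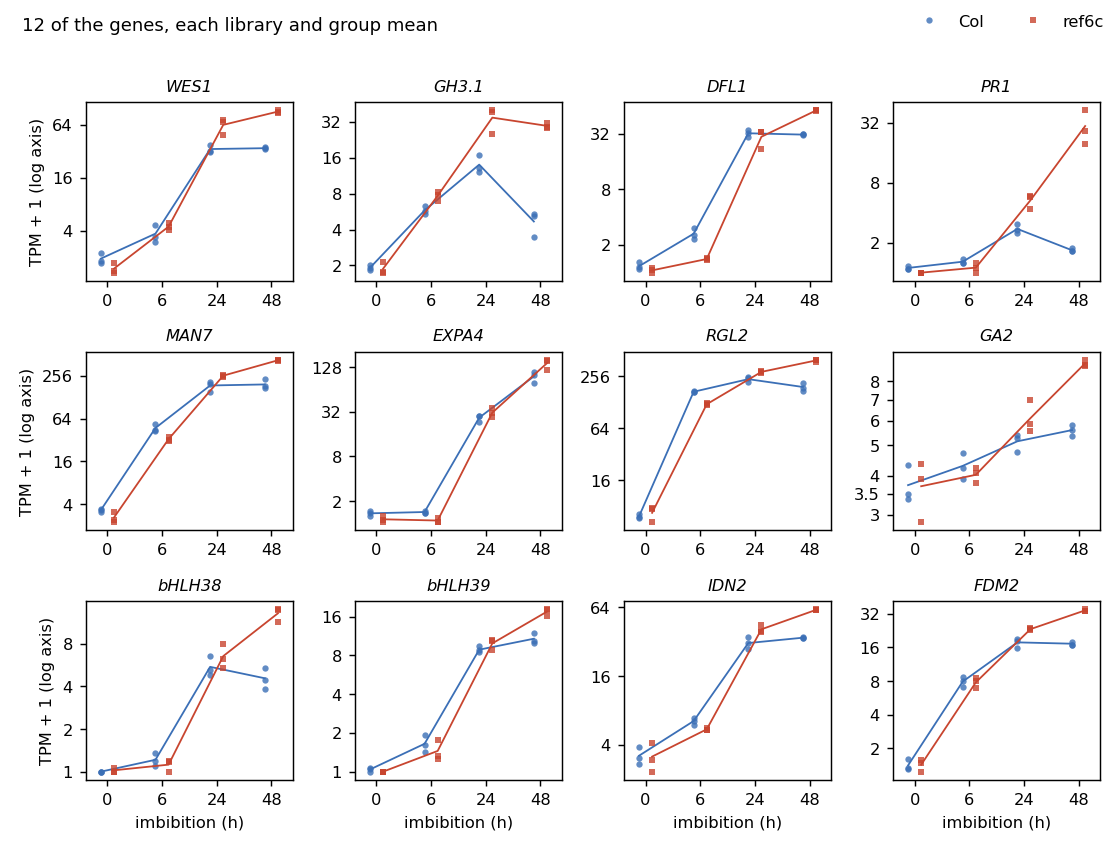
Each panel is 1 gene, with hours of imbibition on the horizontal axis and TPM plus 1 on a log axis; circles are the 3 Col libraries, squares the 3 ref6c libraries, and lines join the group means. At 48 h the 3 ref6c squares lie above every circle of each panel; the Col means of GH3.1, PR1, RGL2 and bHLH38 fall from 24 to 48 h, those of EXPA4 and GA2 go on upwards, and GH3.1 is highest in ref6c at 24 h.

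Starch enzymes made up 8 of the 170 genes, of 38 measured genes on a list written after these genes had been seen. Over the 31 of the 38 at 5 TPM the median log2 ratio to the highest Col mean was 0.15. Most of the list thus stood below the margin. These 31 include the 8, which were chosen on this same ratio, so no contrast with all genes is drawn. Of 35 tested, 22 rose and 3 fell from 6 to 24 h in ref6c, with a median log2 change of 0.51. Over all genes tested 34.1% rose and 33.1% fell, with a median of -0.02. The list holds genes of the set, for which the rule can favour rises, and the contrast was not tested. With median-of-ratios scaling 4 of the 8, PHS2, GBSS1, PWD and SS3, still met the rule.

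The degrading side held PHS2, AMY3, BAM4, ISA3 and PWD. PHS2 (chr3:17301394-17306633, minus strand), the cytosolic glucan phosphorylase that acts downstream of maltose export, read 28.3, 32.1 and 28.8 TPM at 24 h and 34.1, 33.4 and 31.99 TPM at 48 h in Col. In ref6c it read 37.9, 39.5 and 39.0 TPM and 71.6, 68.4 and 75.02 TPM. It was the starch gene with the largest ratio, 2.13, after being lower in ref6c at 6 h, 13.4 to 14.1 TPM against 18.1 to 21.4 TPM. PHS2 rose in ref6c from 6 to 24 h by 1.43 ± 0.12 (SE, limma adjusted p = 3.25e-07). AMY3, a plastid alpha-amylase, read 4.41, 5.39 and 5.29 TPM at 24 h and 9.44, 8.29 and 9.11 TPM at 48 h in Col, and 8.06, 9.06 and 7.48 TPM and 16.2, 14.97 and 16.0 TPM in ref6c. BAM4, a plastid protein of the beta-amylase family needed for normal starch breakdown, was at 11.04, 10.6 and 12.9 TPM and 15.3, 17.1 and 14.4 TPM in Col, and at 14.3, 17.5 and 14.9 TPM and 24.9, 27.5 and 29.0 TPM in ref6c. The debranching enzyme ISA3 was at 8.62, 9.71 and 9.08 TPM and 14.6, 14.0 and 14.4 TPM in Col, and at 10.3, 12.6 and 12.5 TPM and 22.8, 21.0 and 22.3 TPM in ref6c. In Col these 3 genes were lower at 24 h than at 6 or 48 h, and in ref6c their libraries at 6 and 24 h overlapped. Their changes from 6 to 24 h in ref6c were -0.00072, 0.07 and -0.04 and did not pass the test (limma adjusted p = 0.998, 0.549 and 0.775). PWD, which phosphorylates the granule surface, was at 48.3 ± 3.35 TPM in Col and 74.98 ± 2.85 TPM in ref6c at 48 h.

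The building side held GBSS1, SS3 and SBE2.1. GBSS1, the granule-bound synthase that makes amylose, read 25.8, 27.5 and 26.5 TPM in Col and 42.8, 40.1 and 42.4 TPM in ref6c at 48 h, and from 6 to 24 h in ref6c it rose by 2.62 ± 0.13 (SE, limma adjusted p = 3.37e-09). SS3, a soluble starch synthase, was at 18.0 ± 1.42 TPM and 28.1 ± 1.15 TPM at 48 h. SBE2.1, a branching enzyme, was at 24.8 ± 0.493 TPM and 37.9 ± 0.978 TPM. Both passed the 6 to 24 h test, SS3 with a rise of 0.62 (limma adjusted p = 0.00301) and SBE2.1 with 0.75 (limma adjusted p = 0.000271). SPS3F, a sucrose phosphate synthase and so an enzyme of sucrose synthesis, was also in the set. It read 21.9, 28.2 and 25.9 TPM in Col and 58.3, 57.3 and 59.0 TPM in ref6c at 48 h. Under median-of-ratios scaling SPS3F did not meet the rule. PHS2, BAM4, SS3 and SBE2.1 overlap another annotated gene, and the strand setting of the counting is not stated, so shared reads cannot be told apart there. Enzymes of the list outside the set included ADG1, the small subunit of ADP-glucose pyrophosphorylase, at 251 ± 18.8 TPM in Col and 221 ± 6.67 TPM in ref6c at 48 h, and its large subunit APL3, at 18.5 ± 0.491 TPM and 8.59 ± 1.12 TPM.

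**Figure D5:**
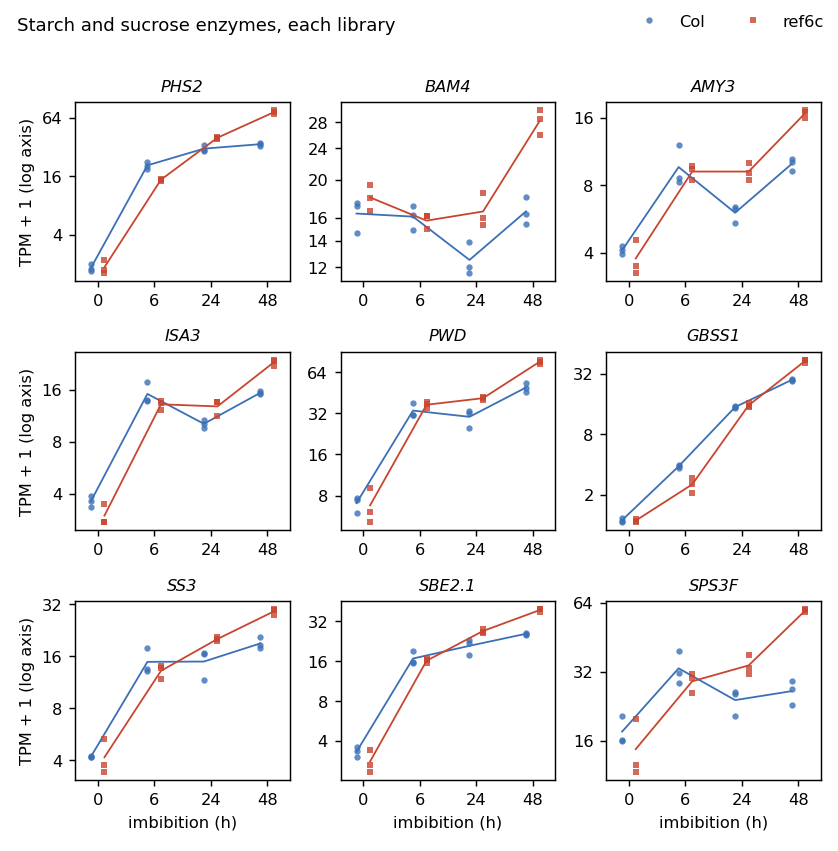
Panels show the 8 starch enzymes and SPS3F, with hours of imbibition on the horizontal axis, TPM plus 1 on a log axis, circles for Col libraries, squares for ref6c libraries and lines through the group means. At 48 h the 3 squares lie above every circle of each panel, and in AMY3, BAM4 and ISA3 the Col circles are lower at 24 h than at 48 h.

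Promoters of the set were searched for 13 motifs, from 250 bases before to 50 after the annotated start and on both strands. The evening element AAATATCT, a sequence bound by MYB-like clock proteins, was in 20 of 169, 11.8%, against 5.87% of the genes at 5 TPM and 5.77% of all 23640 promoters. Over the 500 bases before the start, a window chosen afterwards, the shares were 10.1%, 8.64% and 8.82%, so the contrast depends on the window. In some of these genes the match began at or after the start, as in GA2, PSD3 and AT4G27130, and such genes are not printed. The list also included 3 of the starch genes, PWD, ISA3 and SBE2.1, and the clock-regulated gene CCL, with the match before the start. They are printed to show where the element lies in genes described here: the 250 bases before the start in TAIR10.1, chr3:9827432-9827681 on the plus strand for CCL, chr5:9261229-9261478 on the plus strand for PWD, chr4:5783659-5783908 on the plus strand for ISA3 and chr2:15263961-15264210 on the plus strand for SBE2.1, with the evening element or its complement AGATATTT in capitals.
CCL: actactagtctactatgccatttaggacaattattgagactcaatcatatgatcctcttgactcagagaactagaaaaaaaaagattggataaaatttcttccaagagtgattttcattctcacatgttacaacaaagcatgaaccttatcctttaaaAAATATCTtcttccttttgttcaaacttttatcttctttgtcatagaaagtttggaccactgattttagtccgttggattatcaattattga
PWD: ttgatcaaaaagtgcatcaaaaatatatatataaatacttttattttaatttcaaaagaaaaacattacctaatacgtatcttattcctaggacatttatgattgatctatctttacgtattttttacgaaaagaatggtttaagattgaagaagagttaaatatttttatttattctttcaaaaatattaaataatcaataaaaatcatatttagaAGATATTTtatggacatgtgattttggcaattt
ISA3: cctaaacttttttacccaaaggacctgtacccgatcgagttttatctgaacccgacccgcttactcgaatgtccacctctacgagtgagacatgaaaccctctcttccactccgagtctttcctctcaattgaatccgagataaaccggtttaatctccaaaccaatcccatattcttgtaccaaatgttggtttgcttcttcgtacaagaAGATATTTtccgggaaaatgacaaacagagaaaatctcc
SBE2.1: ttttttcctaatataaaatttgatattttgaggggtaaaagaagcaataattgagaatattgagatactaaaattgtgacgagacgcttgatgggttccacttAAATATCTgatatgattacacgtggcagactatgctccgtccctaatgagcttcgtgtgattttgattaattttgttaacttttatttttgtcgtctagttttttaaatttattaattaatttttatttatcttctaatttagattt
The motif CTCTGNTN, which holds the sequence bound by the zinc fingers of REF6, was in 11.8% of the set, 14.9% of the genes at 5 TPM and 14.96% of all promoters. Over whole gene spans, 4 spellings of it written afterwards, CTCTGCTC, CTCTGCTT, CTCTGTTC and CTCTGTTT, occurred 0.457 times per kb in the set, 0.422 in the genes at 5 TPM and 0.438 in all. The drought and cold element core CCGAC was in 8.28%, 17.55% and 15.6% of these promoters, and the site II element GGCCCA in 13.6%, 22.7% and 17.01%. A match is a run of letters and not a binding site.

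Of 42 genes on the gibberellin and auxin list, RGL2 and GA2 were in the set. RGL2 (chr3:819337-821652, minus strand), the DELLA protein that restrains germination until gibberellin removes it, read 220.2, 243 and 248 TPM at 24 h and 174, 213 and 189 TPM at 48 h in Col. In ref6c it read 279, 299 and 286 TPM and 398, 379 and 397 TPM. Col libraries were lower at 48 h than at 24 h and ref6c libraries higher, and at 6 h ref6c had been below Col, 117 to 124 TPM against 167 to 171 TPM. RGL2 rose in ref6c from 0 to 6 h by 4.21 ± 0.12 (SE, limma adjusted p = 6.12e-12) and from 6 to 24 h by 1.247 ± 0.12 (SE, limma adjusted p = 2.1e-06). The other DELLA genes did not meet the rule, with GAI at 42.8 ± 4.61 TPM in Col and 68.6 ± 1.4999 TPM in ref6c at 48 h after a Col mean of 106 ± 4.71 TPM at 24 h, and RGA1 at 88.2 ± 6.15 TPM and 86.6 ± 1.69 TPM. GA2, ent-kaurene synthase, an early enzyme of gibberellin synthesis, was at 4.82, 4.60 and 4.37 TPM in Col and 8.05, 8.38 and 7.99 TPM in ref6c at 48 h. GA3OX1, which makes active gibberellin, was at 20.7 ± 4.47 TPM and 0.736 ± 0.294 TPM at that time. GA2 overlaps a gene on the other strand.

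Of 37 measured genes on the list of expansins and wall remodelling, MAN7 and EXPA4 were in the set. MAN7 (chr5:26538395-26541692, minus strand), an endo-beta-mannanase that loosens endosperm walls, read 150.4, 198 and 211 TPM at 24 h and 171, 227 and 181 TPM at 48 h in Col, and 248, 265 and 258 TPM and 430.3, 421 and 419.6 TPM in ref6c. The ref6c libraries were above those of Col at both times without overlap, and below them at 6 h, 30.5 to 34.4 TPM against 42.3 to 53.6 TPM. MAN7 rose in ref6c from 6 to 24 h by 2.97 ± 0.12 (SE, limma adjusted p = 7.63e-10). EXPA4, an expansin that loosens growing walls, read 22.3, 27.3 and 27.2 TPM and 78.0, 108 and 98.1 TPM in Col, and 26.1, 34.8 and 29.4 TPM and 159, 155 and 115 TPM in ref6c. Its lowest ref6c 48 h library, 115 TPM, was close to its highest Col library, 108 TPM, and EXPA4 did not meet the rule under median-of-ratios scaling. From 6 to 24 h EXPA4 rose by 4.82 ± 0.13 (SE, limma adjusted p = 2.54e-11). Expansins outside the set included EXPA10 at 667 ± 123 TPM in Col and 96.4 ± 28.7 TPM in ref6c at 24 h, and the root hair expansin EXPA7 at 18.1 ± 4.68 TPM and 0.23 ± 0.276 TPM at 48 h. Over the 23 tested genes of the wall list 21 rose and 1 fell from 6 to 24 h in ref6c. Among all genes tested 34.1% rose and 33.1% fell, and the contrast was not tested. MAN7 overlaps a gene on the other strand.

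Marker sums differed between the groups, not all in one direction. The 9 measured endosperm markers summed to 2190 to 2637 TPM in Col at 48 h and 3818 to 4419 TPM in ref6c, against 3712 to 3885 TPM in Col at 24 h and 3613 to 6126 TPM in Col at 6 h. The 8 measured seed coat markers summed to 51.0 to 59.7 TPM in Col at 48 h and 33.2 to 38.5 TPM in ref6c. TT10 and BAN were at 0 in ref6c at 48 h, and BAN was at 0 in Col at 48 h as well. Most of the endosperm sum was EXPA2, at 1971 ± 290.5 TPM in Col and 3144 ± 70.3 TPM in ref6c at 48 h. The endosperm markers RGE1 and PHE1 were at 0 in ref6c at 48 h, and RGE1 was at 0 in Col at 48 h as well. The 10 root hair markers summed to 192 to 331 TPM in Col at 48 h and 33.0 to 47.0 TPM in ref6c, with none at 0. The 16 measured seed storage and oil body genes took 0.462 to 0.57% of each Col library and 2.26 to 2.39% of each ref6c library at 48 h. The part of these differences in the levels of the 170 genes was not tested.

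PR1 (chr2:6241640-6242541, minus strand), a defence protein and marker of salicylic acid signalling, had a ratio of 10.80 with low levels in the dry seed of both genotypes. It read 2.07, 1.52 and 1.66 TPM at 24 h and 0.639, 0.753 and 0.643 TPM at 48 h in Col, and 4.80, 3.35 and 4.88 TPM and 18.7, 25.6 and 41.8 TPM in ref6c. The ref6c libraries lay above all of Col at both times, and the 3 values at 48 h were far apart. From 6 to 24 h PR1 rose by 2.24 ± 0.13 (SE, limma adjusted p = 1.46e-08). It was the only gene of the set among 25 measured genes of the salicylic acid and defence list, and the jasmonate list had none of 25. CYP71A25, a cytochrome P450, was at 2.34 ± 0.156 TPM in Col and 8.32 ± 0.239 TPM in ref6c at 48 h. TGG1, a myrosinase that cleaves glucosinolates, was at 176, 157 and 153 TPM in Col and 276, 292 and 306 TPM in ref6c, and it rose from 6 to 24 h by 2.495 ± 0.12 (SE, limma adjusted p = 3.99e-09). ERS2, an ethylene receptor, was at 7.32 ± 0.952 TPM and 12.4 ± 0.89 TPM, and its 6 to 24 h change of 0.50 did not pass (limma adjusted p = 0.0534). CYS2, a cysteine protease inhibitor, was at 2684, 2732 and 2993 TPM in ref6c at 48 h against 1285, 1545 and 1252 TPM in Col. CYS2 and its neighbour on the other strand overlap.

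TT7, flavonoid 3'-hydroxylase, was the only gene of the set among 28 measured flavonoid genes. It read 19.7, 17.61 and 20.1 TPM in Col and 47.5, 38.2 and 38.8 TPM in ref6c at 48 h, and from 6 to 24 h it rose in ref6c by 0.80 ± 0.19 (SE, limma adjusted p = 0.0028). Of the enzymes before it in the pathway, 48 h levels were lower in ref6c for TT4 (chalcone synthase), at 395 ± 54.9 TPM in Col and 164 ± 4.64 TPM in ref6c, and for TT5 (chalcone isomerase), at 41.5 ± 6.12 TPM and 9.54 ± 0.31 TPM.

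The iron regulators bHLH38 and bHLH39 are neighbours on chromosome 3, at 21084035 to 21087710, and both were in the set. They belong to the bHLH Ib transcription factors that act with FIT in the root response to low iron. bHLH38 read 5.53, 3.78 and 4.19 TPM at 24 h and 2.85, 4.39 and 3.45 TPM at 48 h in Col, and 4.40, 5.25 and 6.98 TPM and 13.0, 12.9 and 10.5 TPM in ref6c. bHLH39 read 8.98, 10.97 and 9.40 TPM in Col and 17.2, 15.2 and 17.1 TPM in ref6c at 48 h. The genotypes overlapped at 24 h in both genes and not at 48 h. From 6 to 24 h in ref6c bHLH38 rose by 2.53 (limma adjusted p = 8.58e-09) and bHLH39 by 2.79 (limma adjusted p = 3.19e-09). The other Ib genes were low in ref6c at 48 h, BHLH100 at 1.89 ± 0.0913 TPM in Col and 0.746 ± 0.195 TPM in ref6c and BHLH101 at 2.63 ± 0.863 TPM and 0.741 ± 0.0886 TPM. bHLH38 overlaps AT3G56960 on the other strand.

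RNA-directed DNA methylation and its maintenance gave 5 of 42 measured genes, on a list written after they had been seen, and 4 of the 5 met the rule under median-of-ratios scaling. IDN2, FDM1 and FDM2 are XH/XS proteins that bind the double-stranded RNA of this pathway. IDN2 read 33.8, 33.8 and 33.4 TPM in Col and 59.7, 59.0 and 60.4 TPM in ref6c at 48 h, FDM2 16.0, 17.04 and 15.8 TPM and 33.1, 34.1 and 32.9 TPM, and FDM1 17.9, 16.5 and 18.22 TPM and 27.2, 26.6 and 27.8 TPM. Libraries of a genotype were close together, and the genotypes did not overlap. All 3 rose in ref6c from 6 to 24 h, by 2.90 for IDN2 (limma adjusted p = 2.01e-08), 1.59 for FDM2 (limma adjusted p = 1.87e-07) and 2.00 for FDM1 (limma adjusted p = 5.43e-08). VIM5, of the family that maintains CG methylation, was above Col from 6 h on, at 7.77 ± 1.49 TPM in Col and 12.9 ± 1.259 TPM in ref6c at 6 h and at 2.59 ± 0.166 TPM and 14.5 ± 1.06 TPM at 48 h. NRPE3B, annotated as a DNA-directed RNA polymerase family protein, was highest in ref6c at 24 h, 9.20 to 10.2 TPM, and its ref6c 48 h libraries were all lower, 7.44 to 8.17 TPM. Over the 37 tested genes of the list 20 rose and 4 fell from 6 to 24 h in ref6c, with a median log2 change of 0.43. Among all genes tested 34.1% rose and 33.1% fell, with a median of -0.02. The list holds genes of the set, for which the rule can favour rises, and the contrast was not tested.

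Clock and seed maturation genes of the set included several with a low point in Col at 24 h. CCL, a transcript regulated by the clock, read 1.15, 2.04 and 2.42 TPM at 24 h and 11.2, 11.6 and 13.2 TPM at 48 h in Col, and 6.38, 11.3 and 5.57 TPM and 22.8, 26.3 and 28.0 TPM in ref6c. It had been 19.6, 18.24 and 20.3 TPM in ref6c at 6 h against 5.31, 5.001 and 5.78 TPM in Col, and from 6 to 24 h CCL fell by 1.27 on the log2 scale (limma adjusted p = 0.000266). ASG4, a MYB-like transcription factor, read 39.5, 31.0 and 34.7 TPM in Col dry seed, 5.30, 13.0 and 11.2 TPM at 24 h and 30.7, 36.2 and 33.1 TPM at 48 h. At 24 and 48 h it read 16.3, 25.1 and 23.46 TPM and 76.9, 79.0 and 73.2 TPM in ref6c. Scaled by median of ratios, ASG4 had a mean of 89.8 in Col at 0 h and 55.2 in ref6c at 48 h, so the order turned. Its 6 to 24 h change in ref6c did not pass (limma adjusted p = 0.806). PRR7, a pseudo-response regulator of the clock and 1 of 21 measured clock genes, was at 17.41 ± 2.00 TPM in Col and 29.0 ± 1.596 TPM in ref6c at 48 h. LHY, a central clock gene, was at 66.2 ± 6.67 TPM and 60.9 ± 1.12 TPM, and TOC1 at 18.3 ± 1.14 TPM and 31.97 ± 2.07 TPM, after a Col mean of 41.1 ± 3.08 TPM at 6 h.

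OLEO3 and EEL, genes of late seed development, fell and then rose in ref6c. OLEO3, an oil body protein, was the only gene of the set among 16 measured storage and oil body genes, at 141, 146 and 158 TPM in Col dry seed, 53.5, 66.1 and 68.9 TPM at 24 h and 126, 162 and 119 TPM at 48 h. In ref6c it was at 165, 164 and 182 TPM, 158, 209 and 163 TPM and 272, 259.5 and 246 TPM at these times. It fell in ref6c from 0 to 6 h by 0.82 on the log2 scale (limma adjusted p = 1.47e-05) and rose from 6 to 24 h by 0.86 (limma adjusted p = 2.52e-05). EEL, a bZIP factor of seed maturation related to ABI5, read 32.7, 35.0 and 29.9 TPM in Col and 80.8, 83.2 and 86.3 TPM in ref6c at 48 h. EEL fell from 0 to 6 h by 1.46 (limma adjusted p = 1.27e-06) and rose from 6 to 24 h by 1.19 (limma adjusted p = 2.61e-05). Neither met the rule under median-of-ratios scaling, where both were higher in Col dry seed than in ref6c at 48 h. EEL overlaps 2 other annotated genes.

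Genes highest in ref6c at 24 h made a small group of 10. RTFL10 (chr3:4793678-4794417, minus strand), a short peptide of the ROTUNDIFOLIA4-like family that can limit cell proliferation, read 79.2, 53.6 and 56.4 TPM at 24 h and 26.6, 25.9 and 25.9 TPM at 48 h in Col. In ref6c it read 0.904, 1.61 and 1.67 TPM at 6 h, 306, 189 and 276 TPM at 24 h and 118, 129.6 and 134 TPM at 48 h. Its rise from 6 to 24 h in ref6c, 6.74 ± 0.18 (SE, limma adjusted p = 2.66e-11), was the largest of the set, and both genotypes were lower at 48 h. RTFL10 also rose in Col, with means of 1.47 at 6 h and 44.5 at 24 h under median-of-ratios scaling. SDR3, a short-chain dehydrogenase, was at 148, 152 and 156 TPM at 24 h and 102, 106 and 111 TPM at 48 h in ref6c, and no Col library passed 73.3 TPM. With median-of-ratios scaling the order turned, with SDR3 at a scaled mean of 179.6 in Col at 0 h and 77.2 in ref6c at 48 h. SIAR1, a transporter of the EamA family that carries amino acids, was at 36.2 to 44.6 TPM at 24 h and 29.0 to 31.7 TPM at 48 h in ref6c and at 14.7 to 22.6 TPM and 14.0 to 18.7 TPM in Col. LBD18, a transcription factor of lateral root formation, was at 7.70 ± 1.13 TPM in Col and 16.6 ± 3.297 TPM in ref6c at 24 h. RTFL10 overlaps 2 annotated genes on the plus strand.

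Other named genes of the set are given by their 48 h levels. MEE26, annotated as a hydroxyproline-rich glycoprotein, was at 17.5, 18.5 and 21.2 TPM in Col and 33.8, 39.3 and 51.3 TPM in ref6c at 48 h, and the highest library of either genotype before that was 1.503 TPM. MYB117, a transcription factor of organ boundaries, was at 1.63, 1.99 and 2.04 TPM and 5.21, 6.85 and 6.30 TPM. RABA5b, a small GTPase of membrane traffic, was at 66.02 ± 3.83 TPM and 125 ± 11.99 TPM, and SYP23, a syntaxin, at 121 ± 7.68 TPM and 213 ± 3.56 TPM. RRA2, an arabinosyltransferase of wall glycoproteins, was at 5.01 ± 0.702 TPM and 9.49 ± 0.227 TPM, and TTA1 at 90.0 ± 2.03 TPM and 164 ± 5.79 TPM. The translation elongation factor subunit gene eEF-1Bb1 and the uncharacterized gene AT1G03106 were at 2113 ± 102 TPM and 1972 ± 85.7 TPM in ref6c at 48 h, against 1370 ± 118 TPM and 1138 ± 112 TPM in Col. Besides CCL, STY17, a protein kinase, fell from 6 to 24 h in ref6c, by 0.56 on the log2 scale (limma adjusted p = 0.00319), and so did the GDSL lipase gene AT1G71250, by 0.91 (limma adjusted p = 0.00103), which was named after its value was seen.

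Some of these genes were neighbours in the genome. Of the 170 genes 11 lay in 5 runs of adjacent genes of the set, and the only run of 3 was AT5G55450, AT5G55460 and NHX3, at chr5:22467337-22472706. AT5G55450 and AT5G55460 are annotated in the lipid transfer and 2S albumin superfamily and NHX3 a sodium/proton exchanger. At 48 h NHX3 was at 16.9, 20.9 and 17.63 TPM in Col and 44.5, 42.4 and 45.8 TPM in ref6c, AT5G55460 at 4.92, 7.95 and 8.79 TPM and 17.02, 17.3 and 15.8 TPM, and AT5G55450 at 1.66, 3.62 and 3.47 TPM and 8.18, 10.4 and 9.13 TPM. The genotypes did not overlap at 48 h in any of the 3. NHX3 and AT5G55460 overlap on opposite strands, so reads of the shared stretch cannot be told apart, and none of the 3 changes from 6 to 24 h in ref6c passed the test (limma adjusted p = 0.0582, 0.733 and 0.341).

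The set is small beside the table, so a list can hold none of its genes by its size alone. A list also names chosen genes only, so a list with none does not show that its class is absent. EEL and DI21, for example, are in the set and were not on the late embryogenesis and abscisic acid response list. Of 25 lists of germination, hormone, stress and metabolism genes, 16 held none of the 170 genes, among them photosynthesis with 41 measured genes, cell cycle and DNA replication with 38, late embryogenesis and abscisic acid response with 37, detoxification with 34, reserve oil mobilisation with 22 and ribosome biogenesis with 19. The other 9 lists held 12 genes between them, at most 2 each. Genes off the lists were not counted in this. The photosynthesis list names nuclear genes only, and the chloroplast-encoded gene ATCG01060 is in the set. Over all 25 lists 12 of 700 measured genes, 1.71%, were in the set, beside 0.714% of the whole table, and the difference was not tested. In 59 of the 170 genes the annotated span overlaps another gene, and 15 had a mean under 100 reads at ref6c 48 h, 6 of them with a ratio of 2 or more.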

How the data were processed

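The deposited table gives TPM per gene and library, computed by the authors, and recovered read numbers rest on its gene spans, introns included. Per the submitters' processing notes, fastp 0.20.1, HISAT2 2.1.10, DESeq2 1.26.0 and TAIR10 were used, with no role given, and the strand setting is not given in the sources used here. Of the values above 0, 99.97% gave whole reads within 0.001 of a read. All 24 table columns had a sample, and columns without one numbered 0.

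Genes were named and placed with the TAIR10.1 annotation, which matched 23641 of 23826. The 170 genes, their lists and tests were chosen with earlier results of these data known. The starch, GH3 and DNA methylation lists, the auxin motifs and the 4 spellings of the REF6-bound motif were written after the genes had been seen. Changes between 0, 6 and 24 h in ref6c were tested on log2(TPM + 1) of 9 libraries with limma 3.58.1 in R 4.3.3, with Benjamini-Hochberg adjustment over all 16442 genes at 1 TPM in at least 3 libraries, and a threshold of 0.05. The fit and the rule were tested on simulated data. Tables and figures used Python 3.11.15, pandas 2.3.3, numpy 2.4.6 and matplotlib 3.10.9. Alternatives covered scaling, pseudocount, filter, fold minimum, replicate block, single libraries left out and voom on recovered reads.

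Genes named were the 25 with a symbol and the largest ratio, up to 4 per list, the 5 largest tested rises and falls per step, the 5 highest at 24 h relative to Col, the 3 on each side of the margin, the 3 highest at 48 h and runs of 3 or more neighbours. Other starch, GH3, DELLA, expansin and clock genes, and the other genes of the set, were named after their values were seen.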

Additional observations from a re-analysis of the deposited data

How the results depend on the processing

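Median-of-ratios scaling from 0 to 6 h gave 7039 genes higher and 6545 lower, with 36 of the set higher and 95 lower, and from 0 to 24 h 7693 higher and 6605 lower, with 73 and 74 of the set. It left 76 genes meeting the rule and 38 of the 170 above Col at 24 h, and it gave 6 of the set lower from 6 to 24 h. A 2-fold minimum left 3707 genes called from 6 to 24 h, 2354 higher and 1353 lower, with 48 and 1 of the set. It left 78 higher and 1 lower of the set and 710 genes lower from 0 to 6 h, and 1244 genes lower from 0 to 24 h. Voom on recovered reads gave 2336 genes lower and 23 of the set lower from 0 to 6 h, 6 from 6 to 24 h and 15 from 0 to 24 h. Rescaling without organelle and storage genes gave 9, 6 and 4 of the set lower in these 3 comparisons, and fitting all 24 libraries gave 6 from 6 to 24 h. A margin of 2 left 27 genes and a minimum of 20 TPM 110. The cause of these shifts was not tested. Leaving out 1 library at a time gave 156 to 182 genes meeting the rule, and leaving out 1 replicate number in all groups gave 165 to 187. Without 1 ref6c library, the set had 84 to 121 higher and 3 to 8 lower from 6 to 24 h, 3 to 6 lower from 0 to 6 h and 0 to 2 lower from 0 to 24 h.

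With the replicate block 106 genes of the set rose and 4 fell from 6 to 24 h. Only 1 of 9 same-numbered pairs had deviations correlated above 0.1, with a range of -0.0978 to 0.1825, so the numbers were not taken as pairs.

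Uncalled changes from 6 to 24 h near 0 changed sign. ASG4 was at -0.0021 rescaled and between -0.071 and 0.23 with 1 library left out. In the same way TTA1 ranged from -0.094 to 0.012, ISA3 from -0.094 to 0.043, AT5G55460 from -0.29 to 0.075, BAM4 from -0.0087 to 0.13 and AMY3 from -0.067 to 0.057, with 0.0089 under median-of-ratios scaling. Genes with few reads are limited by depth, and 15 of the 170 had under 100 reads at ref6c 48 h.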
